A study of Ictalurus punctatus with 14 samples.

Results

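The late-onset genes of channel catfish (Ictalurus punctatus) are 100 genes with very few reads in embryos and early larvae and the most reads in larvae of 9 and 10 days post fertilization (dpf). They were chosen from 23231 genes on CPM, the count of a gene scaled to the total of its library. A gene qualified if its mean over the libraries of a stage was under 2 CPM at each of 2, 5 and 6 dpf, which 4676 genes met. These were ranked by the lower of the means at 9 and 10 dpf, and the first 100 were kept. The levels at 2, 5, 6, 9 and 10 dpf therefore made the choice, and are given as a description without a test. The libraries of 7 and 8 dpf played no part in it.

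Whole embryos or larvae of the Kansas random strain were sampled at 2 dpf and then daily from 5 to 10 dpf. All fish came from artificial spawning, their sex was not known, and from 7 dpf the swim-up fry received a powdered starter diet. Each stage gave 2 libraries, each from a pool of 4 fish, so a value is an average over 4 animals and the spread between fish within a pool was not measured. Pools of different stages were different fish. Every stage is a whole body, so fewer cells of a type and less RNA per cell cannot be told apart, and neither can age and feeding from 7 dpf on.

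In fish that start to feed, the gut becomes a set of working organs. The stomach secretes pepsinogen, the inactive form of pepsin, into an acid lumen. The exocrine pancreas secretes trypsinogen and procarboxypeptidase, and enteropeptidase on the surface of the intestine cuts trypsinogen into active trypsin, which then activates other pancreatic enzymes. Cells lining the intestine take up peptides, fatty acids and bile acids through transporters, and the lining and its immune cells make lysozyme and other antimicrobial proteins. Of the 100 genes, 3 are known from the stomach, 3 are pancreatic proteases and 9 are known from the intestinal lining or its transport. A group of 5 was placed with immune or antimicrobial functions. Another 2 belong to skeleton or smooth muscle and 5 encode channels or receptors. These groups were drawn up by known roles after the symbols had been seen, and 73 genes are in none of them.

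Gene identifiers were looked up in RefSeq (assembly Coco_2.0) for names. RefSeq lists 96 of the 100 genes, all as protein coding, and 39 of them have a symbol of their own while 57 have only a LOC identifier. The other 4 (genes 108271167, 108264668, 108262345 and 108275706) are given by number. No role is given for a gene without a symbol.

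Total counts per library ranged from 4349807 to 16097718. A count of 3, taken as the smallest that a library can show, equals 0.690 CPM in the shallowest library and 0.186 CPM in the deepest, and this covers counting error only. CPM values are not divided by transcript length. The limit of 2 CPM and the ranks used the same scale for all genes, so transcript length can affect which genes are in the set. A higher CPM in 1 gene than in another is therefore not read as more transcripts. Log2 CPM of the replicates correlated across genes at 0.983 to 0.989 from 2 to 8 dpf, at 0.962 at 9 dpf and at 0.931 at 10 dpf. The pools of 9 and 10 dpf thus stood further apart than those of any earlier stage, and the late-onset genes were among the genes that differed between them.

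The summed level of the 100 genes was 39.7 and 26.5 CPM in replicates 1 and 2 at 2 dpf, 59.3 and 72.7 CPM at 5 dpf, 96.7 and 98.2 CPM at 6 dpf, 310 and 304 CPM at 7 dpf, 824 and 1040 CPM at 8 dpf, 2394 and 3826 CPM at 9 dpf, and 6601 and 1847 CPM at 10 dpf. The libraries of 7 and 8 dpf, which had no part in the choice, lay between the stages that did. The sum at 10 dpf was higher than any other in replicate 1, while replicate 2 was lower than both libraries of 9 dpf. The median over genes of the stage means was 0.187 CPM at 2 dpf, 0.497 CPM at 5 dpf, 0.996 CPM at 6 dpf, 2.76 CPM at 7 dpf, 5.77 CPM at 8 dpf, 15.7 CPM at 9 dpf and 16.6 CPM at 10 dpf. At 9 dpf the means ran from 5.71 to 472 CPM, and at 10 dpf from 5.74 to 663 CPM. A mean of at least 10 CPM at both stages was seen in 60 genes, and of at least 100 CPM in 6. In 97 genes each library of 9 and 10 dpf was above all 6 libraries of 2, 5 and 6 dpf.

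A gene that is under 2 CPM at 6 dpf and above 5 CPM at 9 dpf has to rise in between, so what the stages of 7 and 8 dpf add is when each gene did so. At 7 dpf the mean was at least 2 CPM in 67 genes and at 8 dpf in 89. Some genes at this level at 7 dpf, such as tryp, were under it at 8 dpf (1.80 CPM). The first stage at this level was 7 dpf for 67 genes, 8 dpf for 27 and 9 dpf for 6, namely LOC108279340, LOC108256021, LOC108264864, LOC108272704, LOC108273472 and LOC108266055. The means at 7, 8 and 9 dpf were in increasing order in 89 genes. Between 9 and 10 dpf no such order held, with the mean at 10 dpf above that at 9 dpf in 52 genes.

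**Figure D1:**
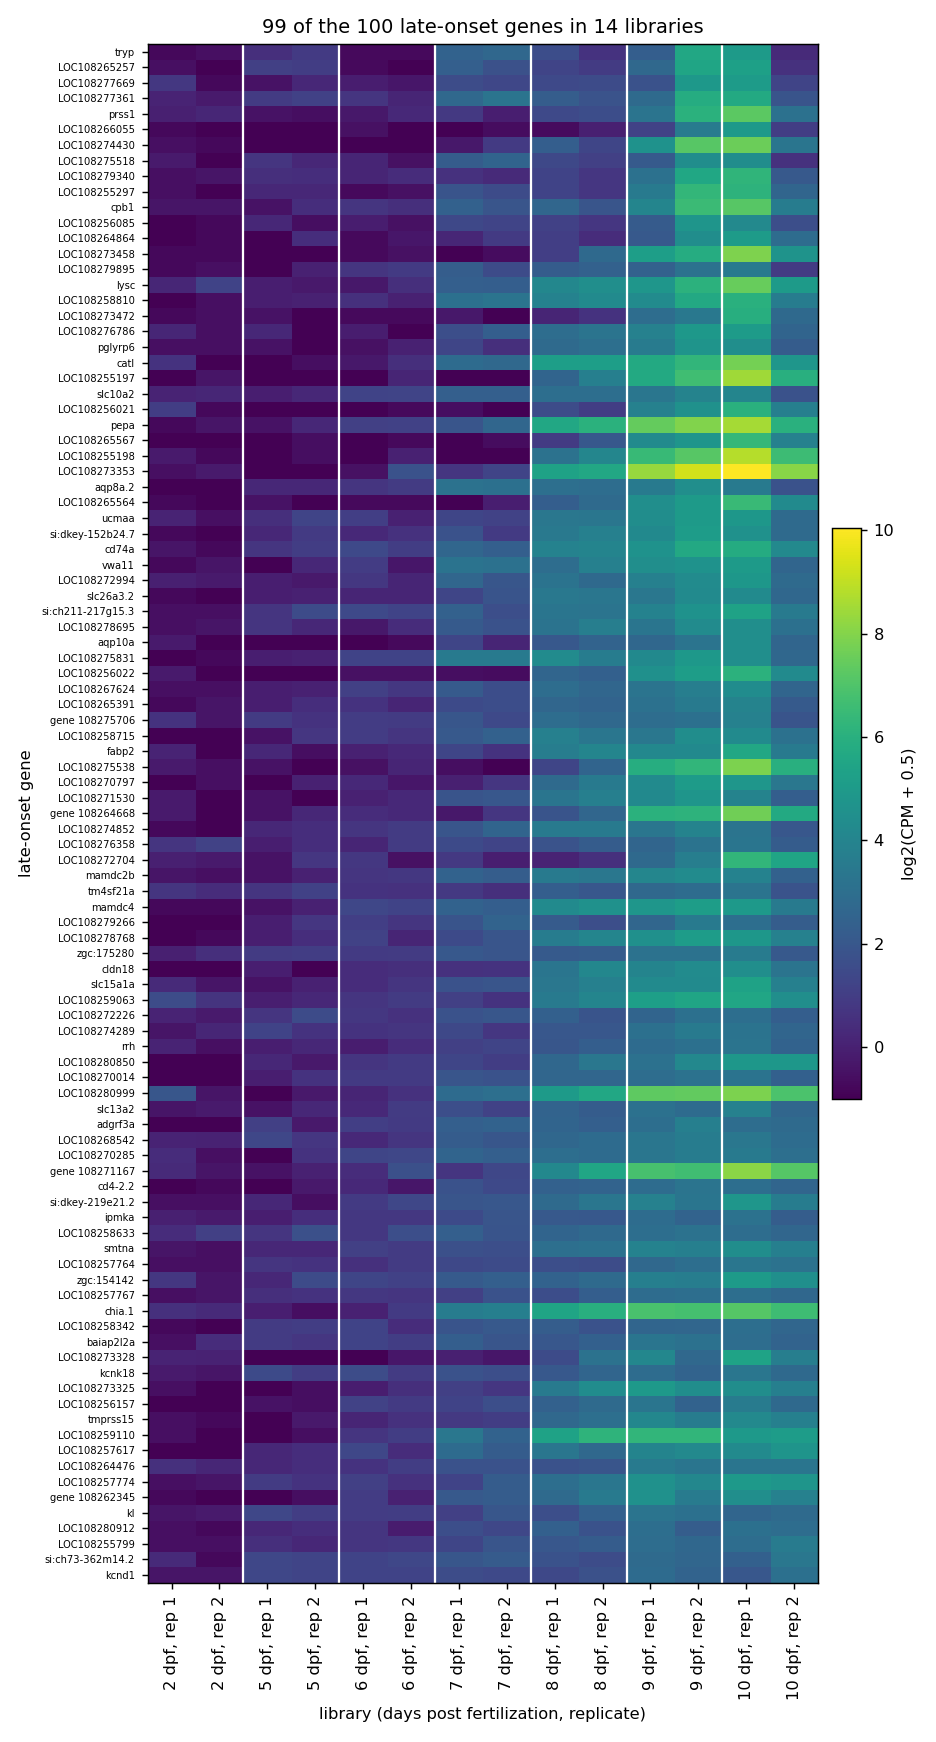
Level of each of 99 of the 100 late-onset genes (rows) in the 14 libraries (columns, by age in days post fertilization and replicate), as log2(CPM + 0.5) on a colour scale from dark (low) to yellow (high); rows are ordered by the summed log2 ratio of replicate 2 over replicate 1 at 9 dpf and replicate 1 over replicate 2 at 10 dpf. Columns of 2 to 6 dpf are dark as the choice requires, those of 7 and 8 dpf are intermediate (median gene 2.76 and 5.77 CPM), and at the top of the plot replicate 2 of 9 dpf and replicate 1 of 10 dpf stand out from their partner.

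The difference between 8 and 7 dpf was tested with edgeR's quasi-likelihood test over 20329 genes, with Benjamini-Hochberg adjustment over all of them. A gene was called if the adjusted p was under 0.05 and the change was 2-fold or more. All 100 late-onset genes passed the filter on low counts. Of these, 21 were called higher at 8 dpf, against 1.15% of all genes tested, and 0 were called lower, against 1.09% of all genes. At an unadjusted p under 0.05 from edgeR, 49 were higher by at least 1 on the log2 scale and 0 were lower by as much. The share over all genes was not counted at this unadjusted threshold, so these 2 numbers have no comparison. DESeq2 also called 0 late-onset genes lower, against 219 of the 20329 genes. The log2 fold change of 8 over 7 dpf was above 0 in 90 genes and had a median of 1.20, against 0.00 over all genes tested. In 75 genes both libraries of 8 dpf were above both of 7 dpf, against 28.9% of the 21845 genes compared this way, and in 8 both were below, against 29.3%. An upward balance follows from the choice of genes, so these shares describe the set and are no evidence of its direction.

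The count of 21 depended on which libraries were fitted. It was 55 with the 4 libraries of 7 and 8 dpf alone and 50 without both libraries of 10 dpf, and it was 3, 3, 14 and 5 without replicate 1 of 7 dpf, replicate 2 of 7 dpf, replicate 1 of 8 dpf and replicate 2 of 8 dpf, in that order. Over all 20329 genes the number called higher moved in the same directions. It was 233 with all 14 libraries, 475 with the 4 libraries alone and 477 without both libraries of 10 dpf. It also fell when any single library of 7 or 8 dpf was left out. The shift was thus not particular to the late-onset genes. The libraries of 8 and 7 dpf also differed in the share of reads that were mapped, which cannot be told apart from age. Between stages with like shares, the median log2 fold change of the late-onset genes was 2.79 for 8 over 6 dpf and 2.44 for 9 over 7 dpf, both above 0 in all 100 genes. These steps use stages that made the choice, which required low levels at 6 dpf and favoured high levels at 9 dpf. A rise was thus largely built in, so the steps are no check on the share of mapped reads, and they were not tested.

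**Figure D2:**
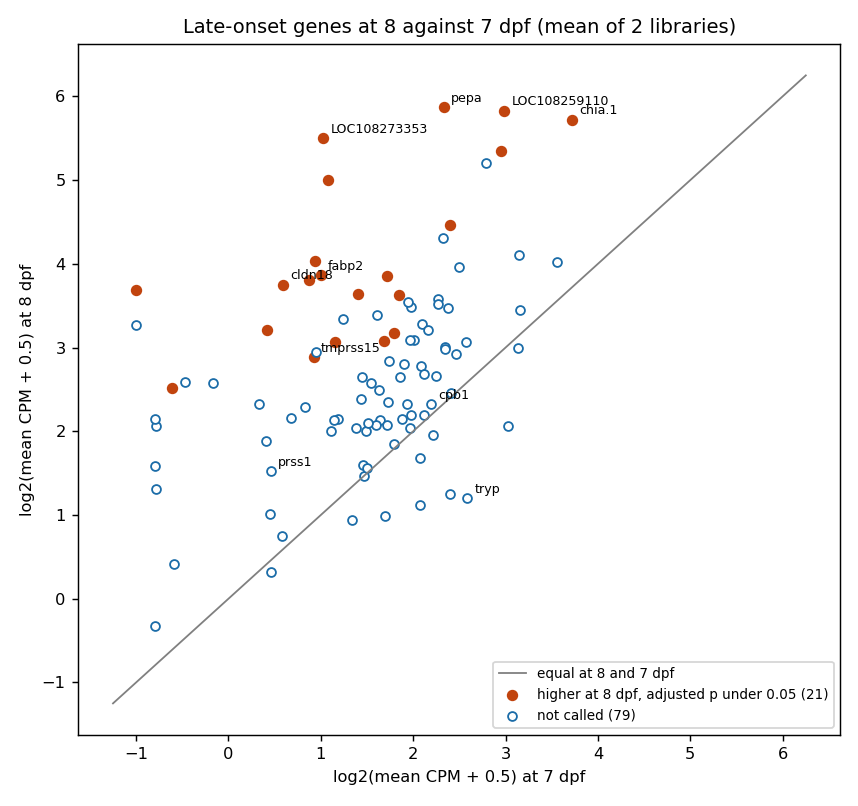
Mean level of each of the 100 late-onset genes at 8 dpf (vertical axis) against 7 dpf (horizontal axis), as log2(CPM + 0.5) of the mean of 2 libraries, with the line of equal levels; filled points are the 21 genes called higher at 8 dpf, open points the other 79. Points lie mostly above the line, with pepa, cldn18, fabp2 and LOC108273353 far above it, cpb1 near it and tryp below it.

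The share called higher at 8 dpf was 21 of the 100 late-onset genes and 1.15% of all genes tested. The 3 stomach genes, grouped after the symbols had been seen and not tested as a group, were all called higher. Without replicate 1 or replicate 2 of 7 dpf, or replicate 2 of 8 dpf, 1 of them was (chia.1), and without replicate 1 of 8 dpf 3 were. The gene pepa encodes pepsinogen A. It had at most 1.72 CPM in any library of 2, 5 or 6 dpf, 3.27 and 5.78 CPM in replicates 1 and 2 at 7 dpf, 49.4 and 66.3 CPM at 8 dpf, 172 and 246 CPM at 9 dpf, and 374 and 64.3 CPM at 10 dpf. Libraries of 8 dpf were thus well above those of 7 dpf and did not overlap with them (log2 fold change 3.66 ± 0.71 (SE), adjusted p = 0.0136 from edgeR). Replicate 2 of 10 dpf lay within the range of 8 dpf.

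The gene chia.1 encodes an acidic chitinase, an enzyme that cuts chitin and is made in the stomach of many vertebrates. Its level was at most 1.31 CPM up to 6 dpf, 11.9 and 13.3 CPM at 7 dpf, 42.8 and 61.5 CPM at 8 dpf, 118 and 111 CPM at 9 dpf, and 139 and 98.3 CPM at 10 dpf. It was the member of this group with a clear level at 7 dpf already, and its pools were less than 2-fold apart from 7 dpf on. The log2 fold change of 8 over 7 dpf was 2.04 ± 0.26 (SE, adjusted p = 0.00202 from edgeR). Claudin 18, the product of cldn18, seals the spaces between stomach lining cells in mammals. The cldn18 level was at most 0.909 CPM up to 6 dpf, 0.982 and 1.04 CPM at 7 dpf, 9.26 and 16.7 CPM at 8 dpf, 15.4 and 19.6 CPM at 9 dpf, and 21.7 and 9.06 CPM at 10 dpf. Unlike pepa, it was at its early level at 7 dpf, with a log2 fold change of 3.64 ± 0.59 at the next step (SE, adjusted p = 0.00745 from edgeR), and the 9 and 10 dpf means exceeded that of 8 dpf by 0.40 and 0.19 on the log2 scale.

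The proteases of the pancreas had levels at 9 and 10 dpf that were set by 1 pool of each stage. None of the 3 was called between 8 and 7 dpf. The spread used for that test includes these unlike pools, so the missing calls do not show a lack of change. Trypsin, encoded by prss1 and tryp, cuts proteins after lysine and arginine. The prss1 level was at most 0.707 CPM up to 6 dpf, 1.31 and 0.444 CPM in replicates 1 and 2 at 7 dpf, 2.17 and 2.57 CPM at 8 dpf, 9.03 and 66.5 CPM at 9 dpf, and 151 and 8.31 CPM at 10 dpf. High values were thus seen in replicate 2 of 9 dpf and replicate 1 of 10 dpf, while their partners were close to each other. The log2 fold change of prss1 for 8 over 7 dpf was 1.44 ± 1.92 (SE, adjusted p = 0.737 from edgeR).

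The tryp level was 0.920 and 1.36 CPM at 5 dpf, 0.103 and 0.101 CPM at 6 dpf, 5.07 and 5.92 CPM at 7 dpf, 2.55 and 1.05 CPM at 8 dpf, 4.44 and 48.4 CPM at 9 dpf, and 31.7 and 0.755 CPM at 10 dpf. It passed 2 CPM at 7 dpf, both 8 dpf libraries were below both 7 dpf libraries, and replicate 2 of 10 dpf was below both 8 dpf libraries. The log2 fold change was -1.48 ± 1.32 (SE, adjusted p = 0.581 from edgeR). With the 4 libraries of 7 and 8 dpf alone it was -1.46 and called lower (adjusted p = 0.0142 from edgeR). Carboxypeptidase B, encoded by cpb1, removes basic residues from the ends of peptides. The cpb1 level was 4.91 and 3.26 CPM at 7 dpf, 5.72 and 3.27 CPM at 8 dpf, 15.8 and 93.0 CPM at 9 dpf, and 145 and 12.1 CPM at 10 dpf, so that 8 and 7 dpf overlapped (log2 fold change 0.22 ± 1.19 (SE), adjusted p = 0.949 from edgeR).

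Against 21 of the 100 late-onset genes and 1.15% of all genes tested, 4 of the 9 genes of the intestinal group were called, all higher at 8 dpf. Without replicate 1 of 8 dpf 2 were called, and without any other single library of 7 or 8 dpf 0 were, with adjusted p of these 4 between 0.0569 and 0.276 from edgeR. Enteropeptidase, the activator of trypsinogen, is encoded by tmprss15. Its level was at most 1.01 CPM up to 6 dpf, 1.31 and 1.48 CPM at 7 dpf, 6.15 and 7.59 CPM at 8 dpf, 16.9 and 12.0 CPM at 9 dpf, and 18.2 and 13.6 CPM at 10 dpf. Both pools were alike at each of these stages, with none set apart at 9 or 10 dpf as in the trypsin genes (log2 fold change of 8 over 7 dpf 2.28 ± 0.38 (SE), adjusted p = 0.00714 from edgeR). The product of fabp2 binds fatty acids inside intestinal cells. The fabp2 level was at most 0.707 CPM up to 6 dpf, 1.96 and 1.04 CPM at 7 dpf, 12.4 and 15.8 CPM at 8 dpf, 17.2 and 18.7 CPM at 9 dpf, and 48.2 and 10.8 CPM at 10 dpf. Its log2 fold change was 3.23 ± 0.75 (SE, adjusted p = 0.0318 from edgeR), and replicate 2 of 10 dpf was below both libraries of 8 dpf.

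The gene slc15a1a encodes a PepT1 transporter, which takes up di- and tripeptides. Its level was 2.95 and 3.26 CPM at 7 dpf, 10.0 and 13.7 CPM at 8 dpf, 18.9 and 19.1 CPM at 9 dpf, and 40.7 and 13.6 CPM at 10 dpf, and its adjusted p of 0.0490 from edgeR was just past the threshold (log2 fold change 1.92 ± 0.50, SE). Endotubin, encoded by mamdc4, lies in the apical endosomes of intestinal cells that take up whole proteins in young mammals. The mamdc4 level was 5.07 and 4.44 CPM at 7 dpf, 19.3 and 23.8 CPM at 8 dpf, 27.7 and 35.5 CPM at 9 dpf, and 29.7 and 11.2 CPM at 10 dpf (log2 fold change of 8 over 7 dpf 2.18 ± 0.41 (SE), adjusted p = 0.0123 from edgeR).

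The other 5 intestinal genes were not called. They encode the ileal bile acid transporter (slc10a2), a chloride and bicarbonate exchanger (slc26a3.2), a dicarboxylate transporter (slc13a2) and the water channels aqp10a and aqp8a.2. The slc26a3.2 level was 10.3 and 9.69 CPM at 8 dpf, against 1.96 and 3.11 CPM at 7 dpf, without overlap (log2 fold change 1.98 ± 0.55 (SE), adjusted p = 0.0606 from edgeR). For aqp8a.2 it was 7.77 and 7.12 CPM at 8 dpf, against 8.51 and 8.00 CPM at 7 dpf, and this water channel was above 2 CPM already at 7 dpf. For slc10a2, which had 4.58 and 4.59 CPM at 7 dpf, 7.39 and 7.47 CPM at 8 dpf, 9.47 and 14.8 CPM at 9 dpf, and 15.9 and 2.90 CPM at 10 dpf, replicate 2 of 10 dpf was below both pools of 7 dpf.

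**Figure D3:**
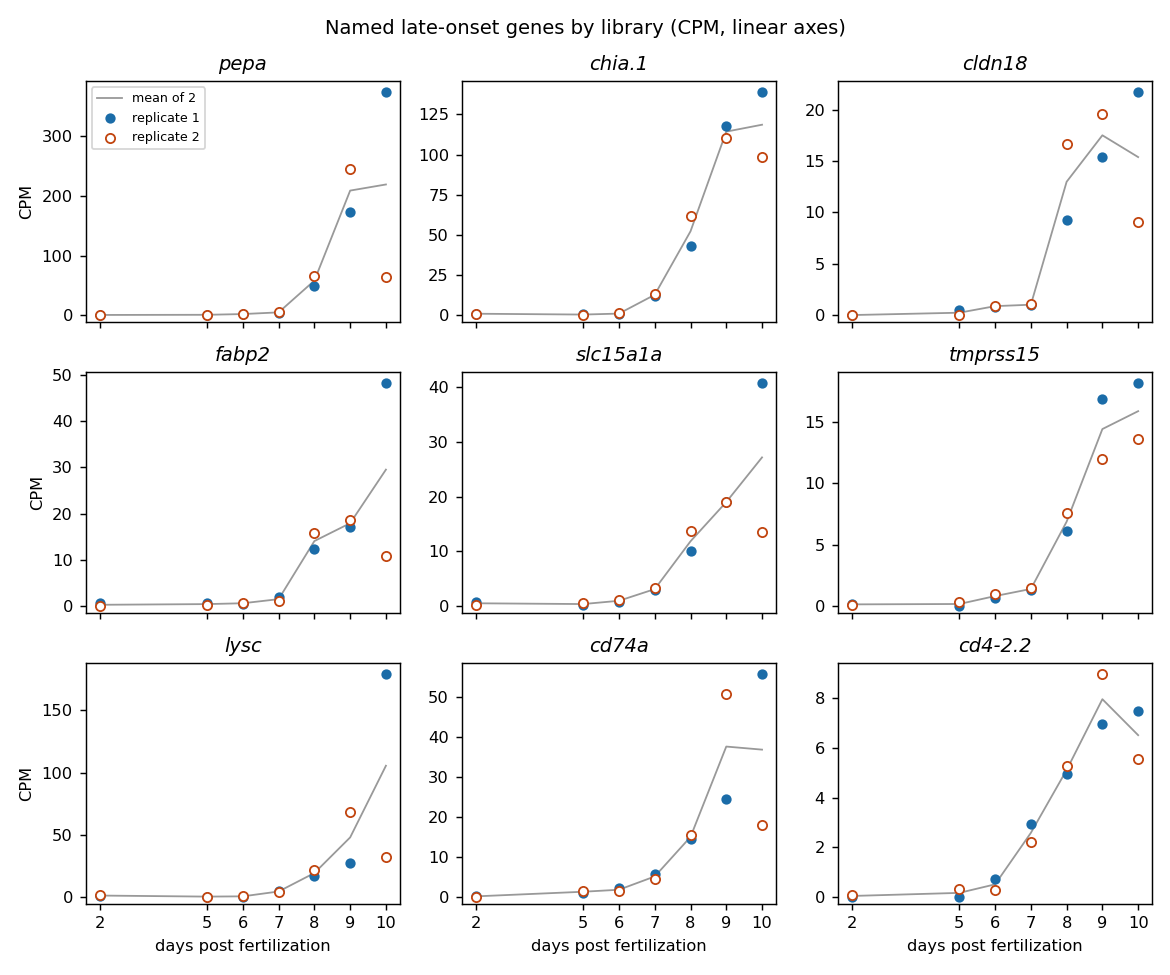
Level in CPM (vertical axes, linear, each with its own range) of 9 late-onset genes against age in days post fertilization; filled points are replicate 1, open points replicate 2, and the line joins the means of the 2 libraries. Levels stay near 0 to 6 dpf, the stomach gene cldn18 and the intestinal gene fabp2 step up between 7 and 8 dpf (9.26 and 16.7 CPM at 8 dpf, against 0.982 and 1.04 CPM at 7 dpf for cldn18), and at 10 dpf replicate 1 lies above replicate 2 in each panel.

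Immune and antimicrobial genes had 0 of 5 called between 8 and 7 dpf, with all 5 log2 fold changes above 0. Here too the spread was estimated with the pools of 9 and 10 dpf included, so 0 calls do not show a lack of change. Lysozyme C, encoded by lysc, breaks down bacterial cell walls. The lysc level was 4.58 and 4.44 CPM at 7 dpf, 17.0 and 21.7 CPM at 8 dpf, 27.5 and 68.4 CPM at 9 dpf, and 179 and 32.0 CPM at 10 dpf, with a log2 fold change of 2.09 ± 0.77 for 8 over 7 dpf (SE, adjusted p = 0.148 from edgeR). The gene catl is named for cathepsin L, a protease of lysosomes, which is not an immune function in itself, so its place in this group is uncertain. It had 6.71 and 6.07 CPM at 7 dpf, 36.2 and 36.4 CPM at 8 dpf, 51.7 and 77.3 CPM at 9 dpf, and 214 and 27.6 CPM at 10 dpf. Neither gene overlapped between 8 and 7 dpf, and in both replicate 1 of 10 dpf was far above every other library. The adjusted p of catl was 0.0925 from edgeR, at a log2 fold change of 2.51 ± 0.79 (SE).

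The product of pglyrp6 recognizes peptidoglycan of bacterial walls. Its level was 6.65 and 7.71 CPM at 8 dpf, against 1.96 and 0.889 CPM at 7 dpf (log2 fold change 2.34 ± 0.80 (SE), adjusted p = 0.118 from edgeR). The gene cd74a encodes the invariant chain of MHC class II, which guides antigen presentation to helper T cells. Its level was 5.73 and 4.59 CPM at 7 dpf, 14.5 and 15.5 CPM at 8 dpf, 24.4 and 50.8 CPM at 9 dpf, and 55.7 and 18.0 CPM at 10 dpf (log2 fold change of 8 over 7 dpf 1.55 ± 0.54 (SE), adjusted p = 0.122 from edgeR). A CD4-like receptor of T cells is encoded by cd4-2.2. It had 2.95 and 2.22 CPM at 7 dpf, 4.97 and 5.26 CPM at 8 dpf, 6.96 and 8.97 CPM at 9 dpf, and 7.49 and 5.54 CPM at 10 dpf, and stood out in this group by the closeness of its pools at 10 dpf.

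In the 2 genes of skeleton and smooth muscle, both libraries of 8 dpf were above both of 7 dpf. This held in 75 of the 100 late-onset genes and in 28.9% of all genes compared this way, so it was not particular to them. Smoothelin, the product of smtna, is a protein of contractile smooth muscle, as in the walls of gut and vessels. The smtna level was 7.70 and 8.18 CPM at 8 dpf, against 2.78 and 2.67 CPM at 7 dpf, and was called higher (log2 fold change 1.55 ± 0.29 (SE), adjusted p = 0.0124 from edgeR). It was not called without any one library of 7 or 8 dpf, with adjusted p between 0.0540 and 0.137 from edgeR. The product of ucmaa is a matrix protein of cartilage. Its level was 9.82 and 9.46 CPM at 8 dpf, against 1.96 and 1.78 CPM at 7 dpf, with a log2 fold change of 2.37 ± 0.70 that was not called (SE, adjusted p = 0.0756 from edgeR).

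The channels and receptors ranked from 76 to 99 in the set, and 0 of 5 were called, all with a log2 fold change above 0 (adjusted p from 0.162 to 0.974 from edgeR). They are the potassium channels kcnd1 and kcnk18, the peropsin rrh, the adhesion receptor adgrf3a and klotho (kl), a coreceptor for fibroblast growth factors that act on phosphate. Their summed level was 13.3 and 15.3 CPM in replicates 1 and 2 at 7 dpf, 17.2 and 22.1 CPM at 8 dpf, 37.0 and 39.4 CPM at 9 dpf, and 35.1 and 32.3 CPM at 10 dpf. The pools of 9 and 10 dpf thus had like sums here, where those of the trypsin and carboxypeptidase genes were 29.3 and 208 CPM at 9 dpf and 328 and 21.1 CPM at 10 dpf.

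Among the 73 genes without a role group, 13 were called higher at 8 dpf, against 1.15% of all genes tested. Fewer of these 13 were called when any single library of 7 or 8 dpf was left out, while all 13 stayed at least 2-fold higher at 8 dpf. The gene LOC108273353 had at most 2.93 CPM up to 6 dpf, 1.15 and 1.93 CPM at 7 dpf, 40.8 and 48.7 CPM at 8 dpf, 327 and 617 CPM at 9 dpf, and 1057 and 269 CPM at 10 dpf, with the highest lower mean of the set. Its log2 fold change of 8 over 7 dpf was 4.84 ± 0.87 (SE, adjusted p = 0.0117 from edgeR). Gene 108271167 had 17.3 and 45.8 CPM at 8 dpf, against 1.15 and 2.07 CPM at 7 dpf (log2 fold change 4.24 ± 0.64 (SE), adjusted p = 0.00454 from edgeR). Both were at their early level at 7 dpf, as cldn18 was, and many-fold higher a day later.

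The neighbouring genes LOC108255198 and LOC108255197 had a count of 0 in both libraries of 7 dpf. LOC108255198 had 8.57 and 16.2 CPM at 8 dpf, 87.0 and 143 CPM at 9 dpf, and 445 and 94.9 CPM at 10 dpf. Against 3 counts per library at 7 dpf it was at least 26.5-fold higher at 8 dpf and was called (adjusted p = 0.0240 from edgeR). LOC108255197 had 5.34 and 13.0 CPM at 8 dpf, 52.4 and 100.5 CPM at 9 dpf, and 357 and 62.3 CPM at 10 dpf, was at least 19.6-fold higher at 8 than at 7 dpf, and was not called (adjusted p = 0.0744 from edgeR). The 2 genes thus had the same order of libraries at 8, 9 and 10 dpf.

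By the estimates per stage, few late-onset genes were lower at 10 than at 8 dpf, with 93 of 100 log2 fold changes above 0. The levels at 10 dpf made the choice, and these estimates combine 2 unlike pools. Summed over the set, replicates 1 and 2 had 6601 and 1847 CPM at 10 dpf, against 824 and 1040 CPM at 8 dpf. In some genes, such as catl and fabp2, replicate 2 of 10 dpf was below both libraries of 8 dpf. Among the few genes with a lower estimate were LOC108259110 (-0.918) and LOC108274852 (-0.870). LOC108259110 had 9.82 and 5.04 CPM at 7 dpf, 40.4 and 72.1 CPM at 8 dpf, 77.0 and 76.2 CPM at 9 dpf, and 30.3 and 34.1 CPM at 10 dpf. Both its pools of 10 dpf were thus below both pools of 9 and of 8 dpf. LOC108259110 was the single late-onset gene called against a log2 fold change of 1 rather than 0 (adjusted p = 0.0272 from edgeR's glmTreat), with a log2 fold change of 8 over 7 dpf of 2.92 ± 0.32 (SE). LOC108280999 had 32.2 and 48.4 CPM at 8 dpf, against 6.71 and 7.70 CPM at 7 dpf, and 160 and 169 CPM at 9 dpf (log2 fold change of 8 over 7 dpf 2.47 ± 0.51 (SE), adjusted p = 0.0194 from edgeR). DESeq2 did not call it (adjusted p = 0.0536 from DESeq2). At 2 dpf it had 3.36 and 0.275 CPM in replicates 1 and 2, so 1 early library was above the limit of 2 CPM and only the mean was under it.

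Large steps between 7 and 8 dpf were also seen in LOC108256022, LOC108273325, LOC108259063 and LOC108270797. LOC108256022 had 5.65 and 4.79 CPM at 8 dpf, against 0.164 and 0.148 CPM at 7 dpf, where each value is a single count (log2 fold change 4.97 ± 1.19 (SE), adjusted p = 0.0392 from edgeR). LOC108273325 had 11.4 and 20.4 CPM at 8 dpf, against 1.64 and 1.18 CPM at 7 dpf (log2 fold change 3.47 ± 0.48 (SE), adjusted p = 0.00291 from edgeR). In neither did 8 and 7 dpf overlap, and their later courses differed: LOC108256022 had 68.5 and 18.9 CPM in replicates 1 and 2 at 10 dpf, and LOC108273325 20.9 and 13.1 CPM. LOC108259063 averaged 13.5 ± 3.54 CPM at 8 dpf and 1.34 ± 0.424 CPM at 7 dpf (SD, n = 2 each), and LOC108270797 had 6.65 and 10.9 CPM at 8 dpf, against 0.491 and 1.18 CPM at 7 dpf. Each was called at a log2 fold change of 3.32, with adjusted p of 0.00514 and 0.0264 from edgeR. The other 4 called genes without a role (si:dkey-152b24.7, LOC108278768, LOC108280850 and LOC108257774) had log2 fold changes between 1.50 and 2.49 and adjusted p between 0.0172 and 0.0449 from edgeR.

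Some genes with high levels at 9 and 10 dpf were not called at this step. Gene 108264668 had 0.327 and 1.18 CPM at 7 dpf, 3.17 and 5.84 CPM at 8 dpf, 66.9 and 70.4 CPM at 9 dpf, and 203 and 51.7 CPM at 10 dpf, and LOC108275538 had 0.164 and 0 CPM at 7 dpf, 1.99 and 5.37 CPM at 8 dpf, 59.1 and 76.6 CPM at 9 dpf, and 232 and 62.4 CPM at 10 dpf. In both, the levels of 8 dpf were above those of 7 dpf and far below those of 9 dpf, and the pools of 9 dpf were close to each other. LOC108274430 had 0.327 and 1.33 CPM at 7 dpf, 4.41 and 1.99 CPM at 8 dpf, 24.1 and 143 CPM at 9 dpf, and 187 and 9.31 CPM at 10 dpf, and so had the high pools of the trypsin genes. LOC108258810 had 7.85 and 8.89 CPM at 7 dpf and 14.3 and 19.0 CPM at 8 dpf, and reached 19.7 and 51.0 CPM at 9 dpf and 63.4 and 12.0 CPM at 10 dpf.

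In 8 late-onset genes both libraries of 8 dpf were below both of 7 dpf, and none was called. These were tryp, aqp8a.2, si:ch73-362m14.2, LOC108255297, LOC108277361, LOC108265257, LOC108275518 and LOC108256085. LOC108277361 is an example, with 6.22 and 9.04 CPM in replicates 1 and 2 at 7 dpf, 4.35 and 3.04 CPM at 8 dpf, 6.51 and 57.2 CPM at 9 dpf, and 51.1 and 3.15 CPM at 10 dpf. Its level was above 2 CPM at 7 dpf, lower at 8 dpf, and later high in 1 pool of each stage. The 6 genes of these 8 other than aqp8a.2 and si:ch73-362m14.2 are also among the 20 genes described next. With the 4 libraries of 7 and 8 dpf alone, LOC108275518 was called lower besides tryp (log2 fold change -1.29, adjusted p = 0.0126 from edgeR).

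Replicate pools were mostly alike in the late-onset genes at 7 and 8 dpf and mostly unlike at 10 dpf. At 8 dpf, replicate 1 was at least 2-fold above replicate 2 in 2 of the 100 genes, against 2.62% of all genes with enough counts, and replicate 2 above replicate 1 in 7, against 2.18%. At 7 dpf the numbers were 5 and 7 of 91 genes, against 2.41% and 2.95%. Replicate 1 of 10 dpf was at least 2-fold above replicate 2 in 64 of the 100 genes, against 8.83% of 21686 genes, and replicate 2 was at least 2-fold above replicate 1 in 2 genes (kcnd1 and si:ch73-362m14.2), against 9.63%. The median ratio of replicate 1 over replicate 2 was 2.99, it was above 1 in 93 genes, and it ran from 0.448 in kcnd1 to 42.0 in tryp. After tryp, the highest ratios were 37.6 in LOC108265257, 20.5 in LOC108275518, 20.1 in LOC108274430 and 19.8 in LOC108266055. At 9 dpf replicate 2 was at least 2-fold above replicate 1 in 22 genes, against 4.2% of 21332 genes, and replicate 1 was at least 2-fold above replicate 2 in 3 (LOC108273328 and gene 108262345 among them), against 5.75%. The median ratio of replicate 2 over replicate 1 was 1.41, and the highest were 10.9 in tryp, 9.84 in LOC108277669 and 8.78 in LOC108277361. The ranks at 9 and 10 dpf chose these genes by the means of these same libraries, and a mean over 2 unlike pools is high when 1 pool is very high, so the shares describe the set and were not tested.

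In 1 gene, LOC108273328, replicate 1 was at least 2-fold above replicate 2 at both 9 and 10 dpf, against 0.317% of 21150 genes, and in 0 genes replicate 2 was, against 0.288%. In 20 genes replicate 2 of 9 dpf and replicate 1 of 10 dpf were both at least 2-fold above their partner, against 1.66% of the same genes, and in 0 genes the opposite pools were, against 2.15%. Across 20329 genes the log2 differences between replicates 1 and 2 at 9 and at 10 dpf correlated at -0.585. Opposed pools were thus not particular to the late-onset genes. The 20 were tryp, prss1, cpb1, lysc, cd74a, pglyrp6 and 14 genes known by a LOC identifier. Their summed level was 66.3 and 68.0 CPM in replicates 1 and 2 at 7 dpf, 114 and 117 CPM at 8 dpf, 218 and 953 CPM at 9 dpf, and 1274 and 146 CPM at 10 dpf. At 7 and 8 dpf the pools of a stage were close in this sum, and at 9 and 10 dpf they stood several-fold apart. LOC108265257 had the highest ratio at 10 dpf among the LOC genes, with 1.93 and 1.40 CPM at 8 dpf, 6.07 and 44.5 CPM at 9 dpf, and 37.8 and 1.01 CPM at 10 dpf. The other 80 genes summed to 2176 and 2873 CPM at 9 dpf and to 5326 and 1701 CPM at 10 dpf. None of the 20 was called between 8 and 7 dpf (lowest adjusted p = 0.1003 from edgeR, in LOC108278695), where their log2 fold changes had a median of 0.94 and 6 were below 0. All 21 called genes were among the other 80, whose median was 1.24 with 4 below 0. The spread of a gene was estimated from all 14 libraries, those of 9 and 10 dpf included. The 20 were chosen for unlike pools at 9 and 10 dpf, which widens their spread. That none was called thus follows in part from the choice, and does not set them apart from the other 80.

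**Figure D4:**
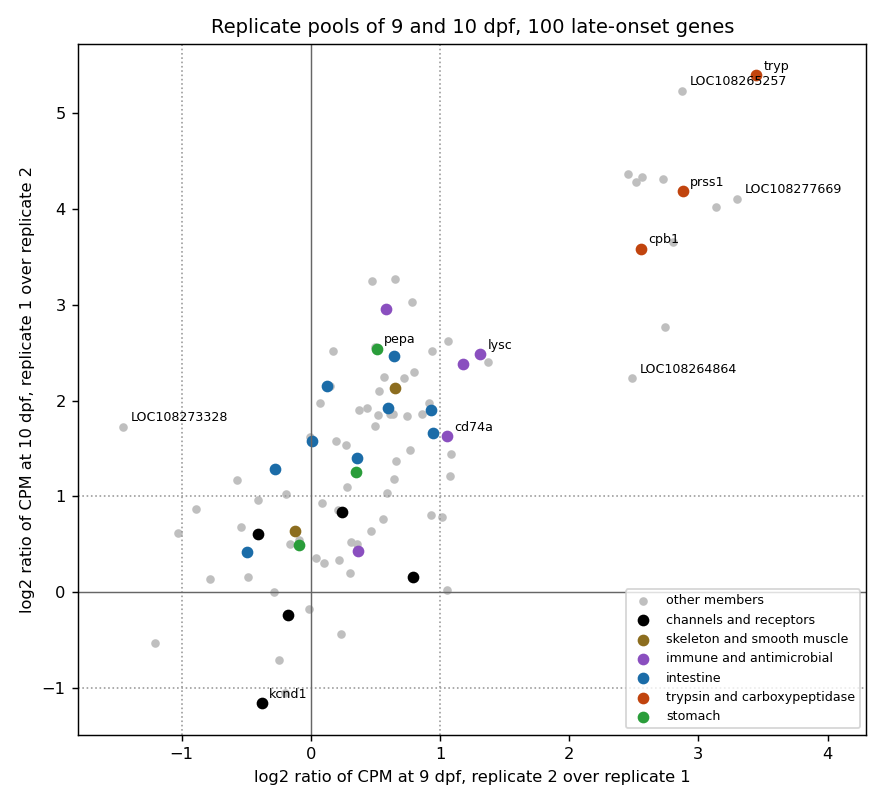
Log2 ratio of CPM between the pools of 10 dpf (vertical axis, replicate 1 over replicate 2) against that between the pools of 9 dpf (horizontal axis, replicate 2 over replicate 1) for the 100 late-onset genes, coloured by role group; solid lines mark equal pools and dotted lines a 2-fold difference. The trypsin and carboxypeptidase genes lie at the upper right with ratios of up to 10.9 at 9 dpf and 42.0 at 10 dpf in tryp, and most other genes lie above the horizontal line of equal pools at 10 dpf.

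Between 9 and 10 dpf the means of the set were level. For 10 over 9 dpf the log2 fold changes had a median of 0.01, and 50 of 100 were above 0. The change was at least 1 in 14 genes, led by LOC108272704 at 2.63, LOC108273472 at 1.94 and LOC108273458 at 1.53. LOC108272704 had 6.37 and 12.9 CPM in replicates 1 and 2 at 9 dpf and 77.3 and 44.8 CPM at 10 dpf, so both pools of 10 dpf were above both of 9 dpf. LOC108273458 had 35.8 and 56.2 CPM at 9 dpf and 241 and 25.0 CPM at 10 dpf, so here the stages overlapped. The change was -1 or lower in 3 genes, LOC108259110 at -1.32, aqp8a.2 at -1.26 and LOC108271530 at -1.24. All these values are descriptions, since both stages made the choice.

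Other genes of the same tissues and pathways were followed in lists of marker genes, which held late-onset genes in 6 cases. The exocrine pancreas list had 8 genes, of which tryp, prss1 and cpb1 are late-onset. Of its other 5, the elastases ela2l and ela3l were called higher in late larvae (mean of 9 and 10 dpf) than in early larvae (mean of 5 and 6 dpf), with log2 fold changes of 4.27 and 5.71 (adjusted p = 0.00143 and 0.000572 from edgeR), and 0 were called lower. Over all genes tested, 9.93% were called higher in this comparison and 4.03% lower. The ela2l level was 14.9 and 19.4 CPM in replicates 1 and 2 at 5 dpf, 1.76 and 1.72 CPM at 6 dpf, 31.4 and 32.3 CPM at 7 dpf, 14.9 and 7.01 CPM at 8 dpf, 32.6 and 221 CPM at 9 dpf, and 168 and 10.4 CPM at 10 dpf. This elastase was thus above the 2 CPM limit at 5 dpf and had the same high pools at 9 and 10 dpf as the trypsin genes.

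Across the whole pancreas list, 6 of 8 genes were at least 2-fold higher in replicate 2 than in replicate 1 at 9 dpf, and 6 of 8 in replicate 1 than in replicate 2 at 10 dpf, with 0 the other way at either stage. The 2 exceptions at both stages were cpa6 and cpb2. Their log2 fold changes of late over early larvae were -0.52 and 0.13, and neither was called. The list was matched by gene symbol, so it can hold genes of other tissues, and it summed to 63.9 and 50.2 CPM at 2 dpf already. The list as a whole summed to 120 and 573 CPM in replicates 1 and 2 at 9 dpf and 664 and 95.2 CPM at 10 dpf, with 66.8 and 64.2 CPM at 8 dpf. At 9 dpf the numbers of such genes in other lists were 1 of 12 in the intestine list, 2 of 14 in the myeloid list, 3 of 11 in the bone and tooth list and 0 of 9 in the liver list. The pituitary and endocrine list, with 19 genes to compare, had 5 higher in replicate 2 and 6 higher in replicate 1. The differences between lists were not tested. At 10 dpf the numbers higher in replicate 1 were 8 of 12 for the intestine, 10 of 14 for the myeloid and 8 of 11 for the bone and tooth list. They were 5 of 7 for the erythroid, 4 of 7 for the antigen presentation and 0 of 9 for the liver list. Here genes of several lists thus differed between the pools. Over all genes compared, 4.2% were at least 2-fold higher in replicate 2 at 9 dpf and 8.83% in replicate 1 at 10 dpf. Summed levels in replicates 1 and 2 of 10 dpf were 2259 and 1316 CPM for the intestine list, 427 and 162 CPM for the myeloid list, 3565 and 666 CPM for the bone and tooth list and 10765 and 8678 CPM for the liver list. The intestine list had higher sums at 2 dpf (4275 and 4039 CPM), so its sum does not follow its late-onset genes. Photoreceptor genes, 24 of which had reads to compare, were at least 2-fold higher in replicate 2 of 10 dpf in 3 cases and in replicate 1 in 0. The part of these pool differences in the levels of the late-onset genes was not tested.

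**Figure D5:**
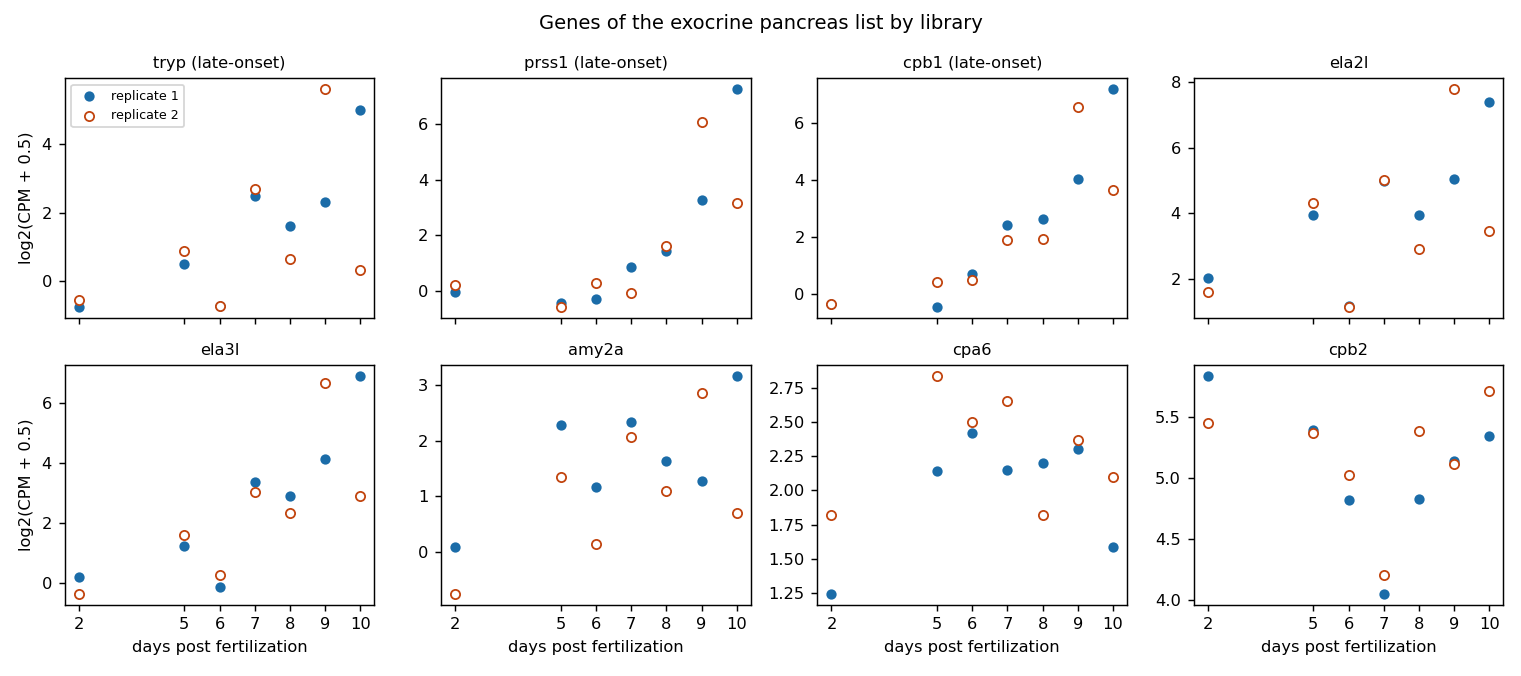
Level of the 8 genes of the exocrine pancreas list as log2(CPM + 0.5) (vertical axes, each with its own range) against age in days post fertilization, with filled points for replicate 1 and open points for replicate 2. In 6 panels, among them the late-onset genes tryp, prss1 and cpb1, replicate 2 is the higher pool at 9 dpf and replicate 1 at 10 dpf (48.4 CPM against 4.44 CPM and 31.7 CPM against 0.755 CPM for tryp), while cpa6 and cpb2 do not show this.

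The intestine list had 12 genes, with fabp2 and slc15a1a late-onset. Of the others, 8 were tested and 5 were called higher in late than in early larvae, with 0 called lower. These were the second PepT1 gene slc15a1b at a log2 fold change of 6.04, the alkaline phosphatase alpi.2 at 4.29, the glucose transporter slc5a1 at 3.39, sucrase-isomaltase (si) at 2.52 and villin (vil1), which bundles actin in microvilli, at 2.10. Not called were apoa1a, alpi.1 and cdx1a, at log2 fold changes of -0.94, -0.43 and 0.999. Of these, apoa1a and cdx1a had adjusted p of 0.000534 and 0.00595 from edgeR and missed only the 2-fold threshold. The antigen presentation list held cd74a among 7 genes. One of its other 6, the second invariant chain gene cd74b, was called higher in late larvae (log2 fold change 2.40, adjusted p = 0.000203 from edgeR).

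In the list of lymphoid and thymus genes, which held cd4-2.2, 16 others were tested, and 8 were called higher in late than in early larvae and 0 lower. Among them were the coreceptor genes cd8a at 4.26 and cd4-1 at 2.83 on the log2 scale, and lck at 1.92, a kinase that acts behind CD4 and CD8. The list of lectins and antimicrobial proteins held lysc, and of 24 others tested 3 were called higher and 2 lower. The stomach list matched no gene but pepa. Lists without a late-onset gene included the myeloid list, with 6 of 14 called higher and 0 lower, the photoreceptor list with 18 of 22 higher and 0 lower, the bone and tooth list with 5 of 10 higher and 0 lower, the liver list with 1 of 9 higher and 1 lower, the erythroid list with 0 of 7 higher and 2 lower, and the interferon list with 0 of 11 higher and 2 lower. Changes under 2-fold were not called, and the median log2 fold change was -0.78 in the liver list and -0.74 in the erythroid list. Muscle genes had 8 of 32 called higher and 4 lower, lens genes 2 of 21 higher and 0 lower, skin and mucus genes 3 of 13 higher and 0 lower, and pituitary and endocrine genes 3 of 15 higher and 0 lower. Photoreceptor genes rose in the largest share of a list with tested genes, and none of them was late-onset by the rule.

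Several late-onset genes lie next to each other. On the annotation, 95 of the 100 were placed on a chromosome, and 21 of them formed 11 pairs within 100000 bases, 10 with no annotated gene between the partners. The pepsinogen gene pepa neighboured LOC108265564, which in turn neighboured LOC108265567, and chia.1 neighboured LOC108280999. The levels of LOC108265564 were 4.47 and 6.54 CPM at 8 dpf, against 0 and 0.444 CPM at 7 dpf, and those of LOC108265567 1.37 and 3.62 CPM at 8 dpf, against 0 and 0.148 CPM at 7 dpf. In all 3 genes of the pepa neighbourhood 8 and 7 dpf did not overlap, and replicate 1 was above replicate 2 at 10 dpf. Neither trait was particular to it. Of the 100 genes, 75 had both libraries of 8 dpf above both of 7 dpf, and 93 had replicate 1 above replicate 2 at 10 dpf. The exchanger slc26a3.2 neighboured LOC108279895, and kcnk18 neighboured LOC108270285. The further such pairs were LOC108273353 with LOC108272704, LOC108273472 with LOC108273458, LOC108255198 with LOC108255197, LOC108256022 with LOC108256021, and LOC108257764 with LOC108257767, and LOC108273325 and LOC108273328 had 5 genes between them. Neighbours can be near-identical copies whose reads the counting could not assign to 1 of them, so the split of levels within a pair is uncertain. The strand setting of the counting is not given in the sources used here, so the same holds for genes that overlap on opposite strands.

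The edges of the set were narrow. At the last ranks, kcnd1 and LOC108258342 had a lower mean of 5.74 and 5.71 CPM and were kept, while the T cell kinase gene lck and the connexin gene gjb1b had 5.70 and 5.64 CPM and were not. At the limit of 2 CPM, si:ch211-217g15.3, LOC108270285 and kcnd1 had a highest early mean of 1.99, 1.99 and 1.97 CPM and were kept, and ptk6b, ninj2 and LOC108255434 had 2.04, 2.09 and 2.09 CPM and were not.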

How the data were processed

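The authors pooled 4 embryos or larvae per library, depleted ribosomal RNA, sequenced paired-end reads, trimmed them with Trimmomatic 0.36, mapped them with STAR 2.7.0 and counted reads on exons with HTSeq-count, per the labels and the study's methods. The deposited values are raw counts per gene and library. The genome build of the files and the strand setting are not given in the sources used here, so no coordinates are printed. The study's mapping rates are lower at 5, 7 and 9 dpf than at 2, 6, 8 and 10 dpf.

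Lines sharing an identifier (7 of 23235) were summed, which left 23231 genes in 14 libraries. CPM are counts scaled to the library total. The members and lists were chosen with earlier results of these data known. The rule also drops 2 identifiers, which were not among the 100. Tests used edgeR 4.0.16 in R 4.3.3 (TMM, filterByExpr with stages as groups, quasi-likelihood fit of all 14 libraries with a mean per stage, 20329 genes, Benjamini-Hochberg). Standard errors were approximated as the absolute log2 fold change over the root of the F statistic. Both libraries of a stage are separate pools of fish, so p-values measure the spread between pools. A level was compared between replicates only with at least 3 counts in 1 of them. The fit was tested on simulated data. Alternatives were DESeq2 1.42.0, RLE, other filters, glmTreat, the 4 libraries alone, a replicate block, other membership rules and leaving out libraries.

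Genes named are the 20 with the highest lower mean of 9 and 10 dpf, the called genes with the largest changes, those with the largest ratios between pools, those at the edges of the rule, those in lists, and neighbours. Others were named for a known role after their values were seen. One gene is part of the counts and is not reported here by name. Plots used Python 3.11.15 with matplotlib 3.10.9.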

Additional observations from a re-analysis of the deposited data

How the results depend on the processing

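The number of late-onset genes called higher at 8 than at 7 dpf was 21 and moved by more than 1.5 times under several settings. It was 55 with only the 4 libraries of 7 and 8 dpf, 50 without both libraries of 10 dpf (chosen after seeing the data), 32 with DESeq2 (20 of the 21 among them, and 8 genes without an adjusted p) and 1 when tested against a log2 fold change of 1. With each library of 7 and 8 dpf left out in turn it was 3 to 14, where the single library left in a stage is assumed to vary like the other stages and fewer samples were tested. It was 21 with RLE, without a filter on low counts and with a minimum of 10 counts, and 22 for a set ranked by the lowest of the 4 libraries of 9 and 10 dpf (also chosen after seeing the data). The number called lower was 0 except for 2 with the 4 libraries alone. All 21 called genes were at least 2-fold higher at 8 dpf in each of these settings. The number of late-onset genes with a log2 fold change above 0 was 90 and went down to 89 with the replicate block, 87 without replicate 2 of 7 dpf and 86 without replicate 1 or without replicate 2 of 8 dpf, so some genes that were not called changed direction. With the replicate number as a block 19 were called. The numbers do not pair the samples: pools of different stages were different fish, and the deviations of same-numbered libraries of 7 and 8 dpf correlated at -0.00195 across genes. Larger correlations of either sign were seen for 8 and 9 dpf (-0.265), 8 and 10 dpf (0.268) and 9 and 10 dpf (-0.585). Their cause was not tested. Membership depended most on the early limit, with 43 of the 100 genes kept under 1 CPM and 45 under 5 CPM. It was 79 without replicate 1 of 10 dpf, 92 to 94 without any other library of 9 or 10 dpf, 82 with the limit set on each library, and 97 with TMM-scaled CPM. Apart from the construction named for each setting, the cause of these shifts was not tested. Depth limits the early levels, since 3 counts equal up to 0.690 CPM.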
